A study of Mus musculus with 120 samples.

Results

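CC040 is 1 of 10 Collaborative Cross strains, inbred mouse lines that each carry their own mixture of several founder genomes. The report concerns liver RNA of CC040 mice kept for 12 weeks on a high-fat, high-sucrose (HF/HS) diet or on a control diet. Members were chosen by strain and diet label, and 10 of the 120 libraries of the series were used. They were 5 HF/HS libraries (2 from females, 3 from males) and 5 control libraries (2 from females, 3 from males). All mice were unmodified animals of a single inbred strain, and no animal age was used here. In the HF/HS diet, milkfat (high in palmitic acid) supplied 42% of the calories, cholesterol made up 0.2%, and sucrose exceeded 30%. The control diet was matched for ingredients, low in fat and lower in sucrose. Of 12 columns labelled CC040, the female control library numbered 3 and the female HF/HS library numbered 1 held identical values in all 24883 rows, and both were left out. Libraries of the other 9 strains, 108 in all, entered only the comparison between strains. The labels do not state whether replicate libraries are different mice. The p-values therefore reflect library-to-library variation alone, part of which may be technical.

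Values are relative abundances per transcript length (FPKM) that the authors rescaled to a common 75th percentile of about 10, and depth is unknown. The libraries used summed to 996743 to 1160736 units. Hepatocyte markers dominated as the tissue label says, with summed values of 60119 to 73040 on HF/HS and 71518 to 76813 on control. Alb, the albumin gene, was listed at 0 in every CC040 library.

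By neutrophil, resident macrophage and lymphocyte markers, 1 of the 10 libraries stood apart. Neutrophil markers summed to 2002 in the female HF/HS library numbered 3, and to 27.4 to 49.0 in the other HF/HS libraries and 37.03 to 124 in control libraries. In that library the calgranulin genes S100a8 and S100a9 had values of 994 and 884, and the neutrophil granule genes Mpo and Elane had 35.5 and 28.4. Its resident macrophage markers summed to 2103, against 606 to 792 in the other HF/HS libraries and 673 to 898 in control libraries. Its lymphocyte markers summed to 37.6, against 9.12 to 13.0 in the other HF/HS libraries and 10.6 to 22.5 in control libraries. Female libraries also differed within a diet in other genes, of which Cxcl1 and Cyp3a41a were named after their values were seen. The chemokine gene Cxcl1 had 85.8 in female control 2, against 13.3 in female control 1. Cyp3a41a, a cytochrome P450 gene, had 1628 and 25.1 in female controls 1 and 2. It had 969 and 54.9 in female HF/HS 2 and 3. Bile duct markers summed to 70.8 to 201 on HF/HS and to 35.8 to 99.4 on control. Spp1, which is also a lipid-associated macrophage marker, was the largest part of that sum. Krt23 ran from 4.92 to 31.9, and Tff3 reached 4.85. In female HF/HS 2, which summed to 70.8, Krt23 had 31.9 and Spp1 35.5. Male HF/HS livers had Krt23 at 8.74 to 13.8, against 5.90 to 8.08 in male controls. The other members, Krt19, Krt7, Epcam, Sox9, Cftr and Muc1, were at most 0.927 in every library. The part of these markers in the results below was not tested. The counts over all genes, and some of the list counts that moved, are also given without female HF/HS 3. Among the counts that moved and are not given are those of hepatocyte, resident macrophage, and stellate cell and matrix markers. The same holds for the lists of sterol efflux, omega oxidation, bile acid and female-biased genes. In bulk liver, fewer cells of a type and less RNA per cell cannot be told apart.

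**Figure D1:**
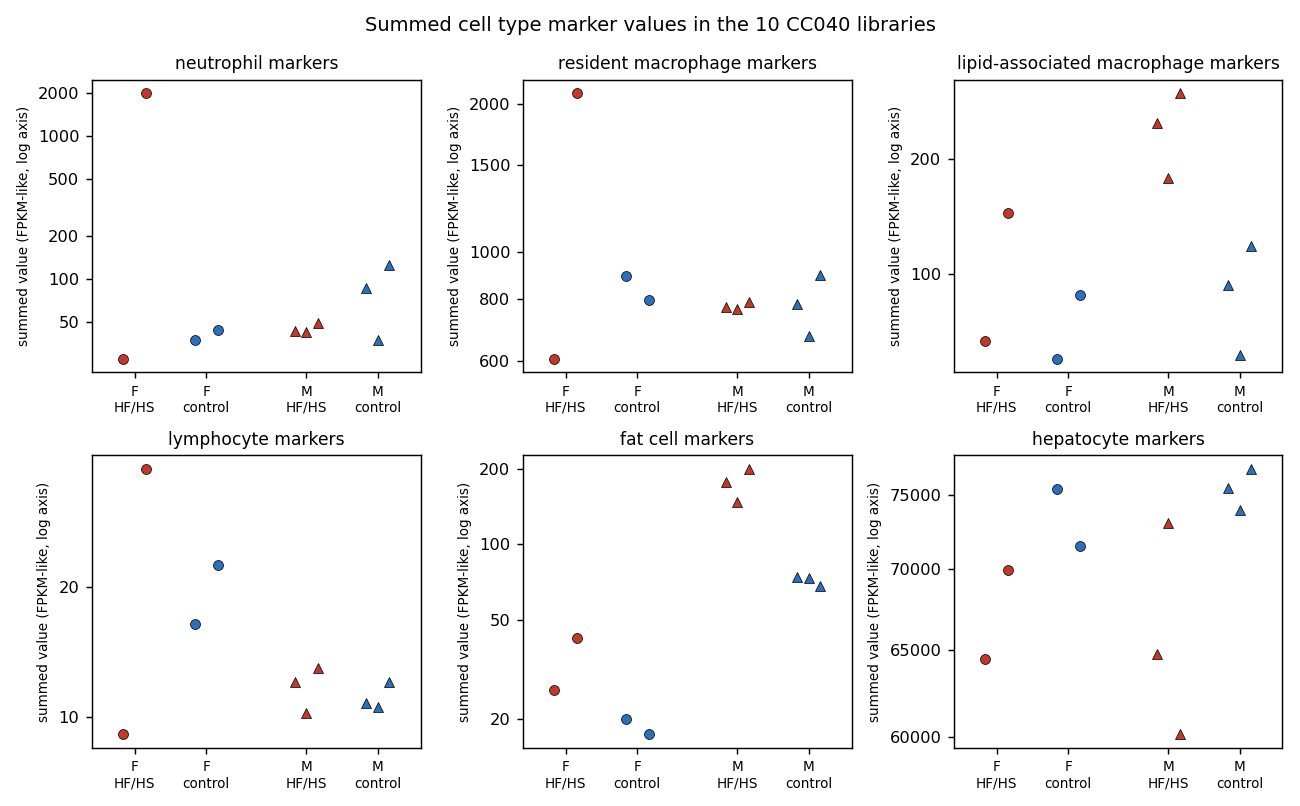
Summed FPKM-like values (log axes, ranges differ between panels) of 6 cell type marker lists in the 5 HF/HS (red) and 5 control (blue) CC040 libraries; circles are females, triangles males, 1 point per library. The female HF/HS library numbered 3 reaches 2002 for neutrophil markers and 2103 for resident macrophage markers, while lipid-associated macrophage markers are at 178 to 297 in male HF/HS libraries and at 61.4 to 119 in male controls.

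The liver makes cholesterol from acetyl-CoA through the mevalonate pathway and also takes it up from lipoproteins. When sterols in the endoplasmic reticulum are low, the transcription factor SREBP2 is released and switches on the synthesis enzymes and the LDL receptor. Sterol excess holds SREBP2 back and, through oxysterols and the nuclear receptor LXR, switches on transporters that export sterols into bile and lipoproteins.

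The main question was which genes differed between HF/HS and control livers of this strain. On HF/HS, 5 of the 20 tested cholesterol synthesis enzymes fell, among them Sqle, Idi1, Cyp51 and Msmo1, by 1.48 to 2.46 on the log2 scale. Scarb1, a lipoprotein receptor, Abcg5, a sterol exporter, Cd36, a fatty acid transporter, and the glutathione transferases Gstm1 and Gstm3 rose. Outside lipid metabolism, Adam11, encoding a membrane protein of the disintegrin family, rose by 1.67, and Atxn1, encoding the nuclear protein ataxin 1, fell by 0.997.

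Of 11908 genes tested, 37 were called at an adjusted p under 0.05 (limma with Benjamini-Hochberg adjustment, sex as covariate), 15 higher and 22 lower on HF/HS. That is a background of 0.311% of tested genes, with 0.126% called higher and 0.185% called lower. An unadjusted p under 0.05 was reached by 1608 genes, 885 of them higher. All 37 called genes had the same sign in females and males, and in all 37 the HF/HS and control libraries did not overlap within either sex. Over all 10 libraries together, 20 of the 37 did not overlap. These genes were picked by p-value from the same libraries, so the separation follows in part from that choice and adds no support. The share of all tested genes without overlap is not given here.

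The number of calls moved with every library. It was 208 without the female HF/HS library numbered 3 and 133 without the one numbered 2, and both fits called all of the 37. It was 9 and 11 without female control 1 and 2. It was 6, 12 and 9 without male HF/HS 1, 2 and 3, and 6, 7 and 16 without male control 1, 2 and 3. Only 6 of the 37 genes were called in each of these 10 fits: Idi1, Cyp51 and Msmo1, which fell, Adam11 and Scarb1, which rose, and Atxn1, which fell. The other 31 were called in 2 to 6 of them, with highest adjusted p of 0.082 to 0.187. Without both HF/HS libraries numbered 3, 77 genes were called, and 23 of the 37 were among them. With the repeated column kept as a female control the count was 0, and with it kept as a female HF/HS library it was 34, of which 28 were among the 37. Its label decides these counts, and which label is right was not tested.

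**Figure D2:**
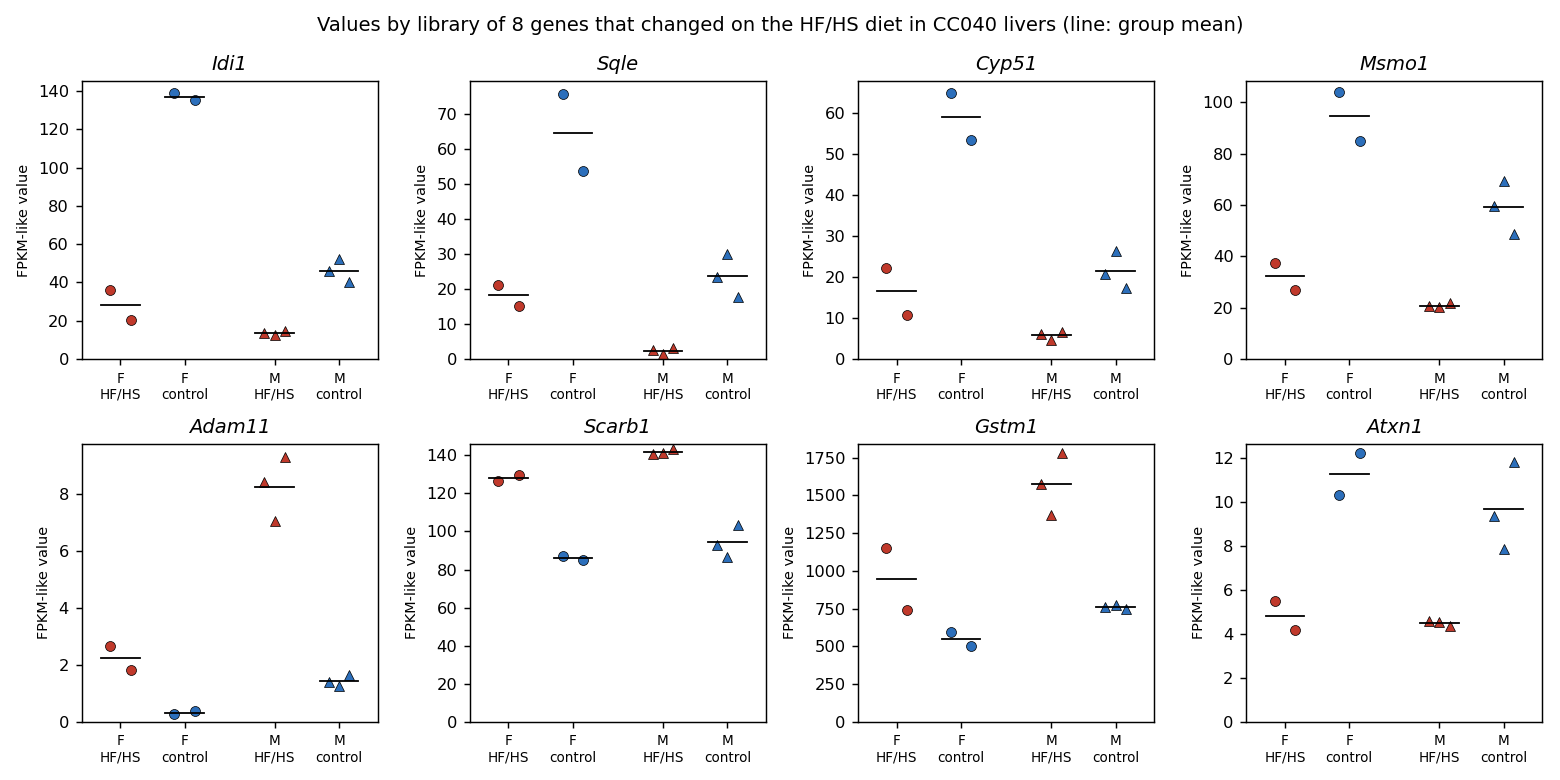
FPKM-like values of 8 called genes by library (linear axes from 0), with females and males on HF/HS (red) left of their controls (blue); each point is a library and each line a group mean. In every panel the HF/HS and control points of a sex do not overlap; Scarb1, for instance, lies at 127 to 143 on HF/HS and at 85.2 to 103 on control.

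Among the synthesis enzymes, Idi1 encodes the isomerase that makes dimethylallyl diphosphate from isopentenyl diphosphate (chromosome 13, 8885606 to 8892396). Its values were 36.2 and 20.6 in female HF/HS livers, against 139 and 135 in female controls. In males they were 13.6, 12.6 and 14.5 on HF/HS, against 45.8, 52.3 and 40.5 on control. Every HF/HS library lay below every control library, and the means were 19.5 ± 9.82 on HF/HS and 82.5 ± 49.96 on control (SD, n = 5 each). Idi1 fell by 1.93 ± 0.163 (log2, SE; adjusted p = 0.0018, limma), and the highest adjusted p with 1 library left out was 0.0151.

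Sqle encodes squalene epoxidase, the first oxygen-dependent enzyme of sterol synthesis (chromosome 15, 59315092 to 59331193). Its values were 21.2 and 15.1 in female HF/HS livers, against 75.6 and 53.5 in female controls. Male values of Sqle were 2.44, 1.32 and 3.13 on HF/HS, against 23.4, 29.9 and 17.8 on control. The groups did not overlap within a sex, but the higher female HF/HS value exceeded a male control value. Sqle fell by 2.46 ± 0.273 (log2, SE; adjusted p = 0.0134, limma) and was called in 6 of the 10 fits with 1 library left out. Its difference was -1.77 in females and -2.91 in males, and the difference between the sexes, -1.14 ± 0.422, was not called (adjusted p = 0.64).

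Cyp51, the lanosterol demethylase (chromosome 5, 4080674 to 4104697), had 22.2 and 10.8 in female HF/HS livers, against 64.9 and 53.5 in female controls. In males it had 6.05, 4.74 and 6.61 on HF/HS, against 20.8, 26.3 and 17.3 on control. It fell by 1.77 ± 0.185 (adjusted p = 0.00709, limma). Msmo1, a sterol methyl oxidase that acts after Cyp51 (chromosome 8, 64718145 to 64733578), had 37.3 and 26.97 in female HF/HS livers, against 104 and 84.8 in female controls. In males it had 20.6, 20.2 and 21.7 on HF/HS, against 59.5, 69.5 and 48.8 on control. All 5 HF/HS values of Msmo1 lay below all 5 control values, and it fell by 1.48 ± 0.114 (adjusted p = 0.0017, limma). Nsdhl, the sterol dehydrogenase that works with Msmo1 (chromosome X, 72918521 to 72958528), averaged 13.8 ± 5.02 on HF/HS and 39.5 ± 15.6 on control (SD, n = 5 each). It fell by 1.42 ± 0.174 (adjusted p = 0.017, limma) and was called in 4 of the 10 fits with 1 library left out.

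The remaining 15 synthesis enzymes were not called. All 20 tested differences of the list were below 0, with a median of -0.92 against -0.01 over all genes tested, and 19 of the 20 had an unadjusted p under 0.05. Of these, Hmgcs1 and Fdps are named after their values were seen. Fdps, the farnesyl diphosphate synthase gene, had -1.40 (adjusted p = 0.0906), and Hmgcs1, the cytosolic HMG-CoA synthase gene, had -0.97 (adjusted p = 0.105). Without female HF/HS 3, 11 of the 20 were called, all lower, in a fit that called 67 genes lower over all genes tested. The list was chosen with these results known, so its count describes these libraries only. In the other 9 strains the median of the list was -1.30, and no member differed between CC040 and the others by the test of that difference.

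**Figure D3:**
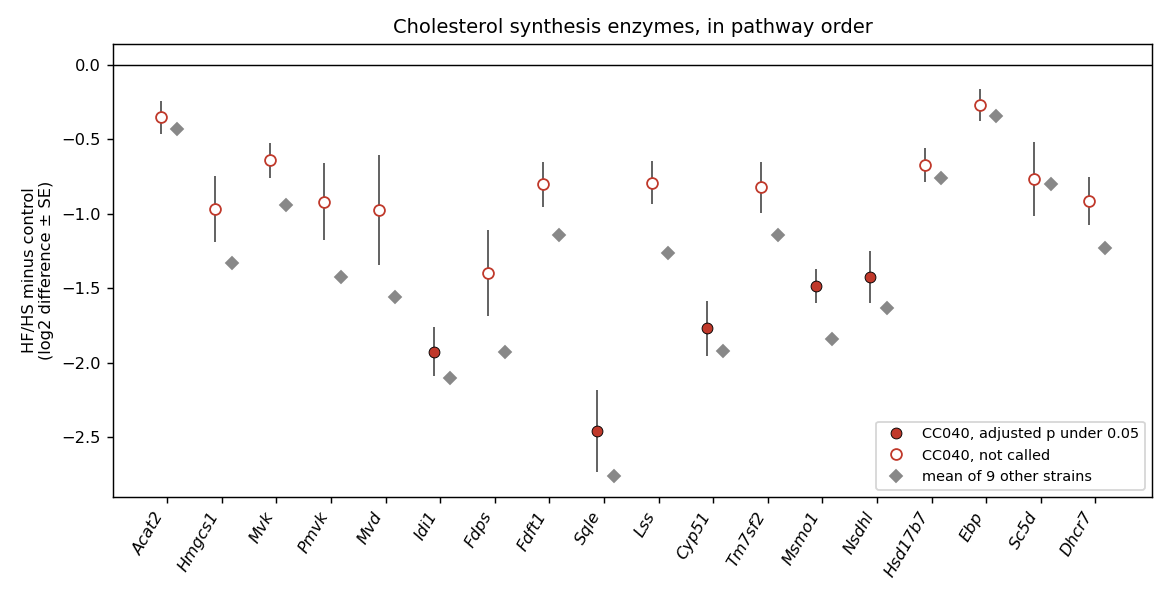
Log2 difference between HF/HS and control of 18 cholesterol synthesis enzymes in pathway order: CC040 with its SE (filled circles called, open circles not called) and the mean of the 9 other strains (grey diamonds). Every CC040 point lies below 0, from -2.46 for Sqle to -0.27 for Ebp.

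Promoter sequence is shown for 4 of the 5 called synthesis enzymes because these genes moved together, and for Hmgcs1, which was not called, because it held the sterol element. Sqle is named only. SREBP2 binds a sterol regulatory element beside the CCAAT-binding factor NF-Y, whose site is called a Y box. In RefSeq promoters (GRCm38.p6, 250 bases before to 50 bases after the start), 15 of the 20 synthesis enzymes had an entry. The letters CCAAT were found on either strand in 14 of these 15 (93.3%), against 42.7% of the 8861 promoters of tested genes. They were found in 10 of 14 promoters of genes called lower (71.4%) and in 5 of 8 of genes called higher (62.5%). Acat2 was the synthesis enzyme without a match. The sterol regulatory element letters TCACNCCAC were found in 1 of the 15, Hmgcs1, and in 1.51% of all promoters. The E box letters CACGTG were found in 20.0% of the 15 and in 12.0% of all. The stretches below run 5′ to 3′ on the gene's strand, with the match (CCAAT, or ATTGG where it lies on the other strand) in capitals for 4 called genes and the sterol element in capitals for Hmgcs1. A match is a run of letters and does not show binding.
Idi1 (chr13:8885566-8885622, plus strand): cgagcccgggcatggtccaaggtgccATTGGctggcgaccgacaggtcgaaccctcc
Cyp51 (chr5:4104696-4104752, minus strand): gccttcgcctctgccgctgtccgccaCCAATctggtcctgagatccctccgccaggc
Msmo1 (chr8:64733603-64733659, minus strand): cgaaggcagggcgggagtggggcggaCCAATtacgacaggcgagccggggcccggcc
Nsdhl (chrX:72918503-72918559, plus strand): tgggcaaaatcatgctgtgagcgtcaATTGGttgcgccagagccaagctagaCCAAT
Hmgcs1 (chr13:119690188-119690248, plus strand): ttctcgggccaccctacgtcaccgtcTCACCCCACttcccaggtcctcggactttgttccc
In Idi1, Cyp51 and Msmo1 the match began 14, 29 and 55 bases before the RefSeq start. In Nsdhl the first match began 8 bases after it, and in Hmgcs1 the sterol element began 137 bases before it.

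Of 9 tested genes of sterol sensing and LDL uptake, 1 fell. Stard4, which encodes a sterol carrier, averaged 23.8 ± 8.68 on HF/HS and 41.4 ± 7.63 on control (SD, n = 5 each) and fell by 0.81 ± 0.113 (adjusted p = 0.0259, limma; called in 2 of the 10 fits with 1 library left out). Insig2, which retains SREBP proteins in the endoplasmic reticulum, had 0.36 (adjusted p = 0.25).

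Of 10 tested genes of sterol efflux and LXR targets, 2 rose and none fell. Scarb1 encodes the receptor that takes up cholesterol esters from HDL (chromosome 5, 125277087 to 125341094). Its values were 127 and 129 in female HF/HS livers, against 87.3 and 85.2 in female controls. Male livers had 141, 141 and 143 on HF/HS, against 92.6, 86.8 and 103 on control. The spread within a diet was small beside the gap, and Scarb1 rose by 0.58 ± 0.0588 (adjusted p = 0.00582, limma; highest with 1 library left out 0.0382). The mean over the other strains was 0.21, and the difference of 0.36 ± 0.170 between CC040 and the others was not called.

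Abcg5 encodes a half-transporter that exports sterols into bile (chromosome 17, 84658234 to 84682923). Its values were 137 and 124 in female HF/HS livers, against 75.5 and 89.4 in female controls. Male livers had 136, 179.6 and 112 on HF/HS, against 83.7, 90.7 and 80.8 on control. All HF/HS values were above all control values, and Abcg5 rose by 0.69 ± 0.116 (adjusted p = 0.0475, limma; called in 3 of the 10 fits with 1 library left out). Its partner Abcg8, a neighbouring gene, had 0.46 (adjusted p = 0.0925), with no overlap between the diets either.

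Of 14 tested genes of fatty acid uptake and binding, Cd36 rose (chromosome 5, 17781690 to 17888959). It had 156 and 102 in female HF/HS livers, against 71.2 and 67.3 in female controls. Male livers had 161, 145 and 169 on HF/HS, against 101, 103 and 104 on control. Cd36 rose by 0.72 ± 0.110 (adjusted p = 0.03, limma; called in 2 of the 10 fits with 1 library left out), and its mean difference in the other strains was 1.14. Fabp5, a fatty acid binding protein gene, had -1.49 (adjusted p = 0.0849) and Fabp4, another of the family, 0.88 (adjusted p = 0.0859).

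Of 24 tested genes of glutathione metabolism and NRF2 targets, 2 rose, none fell, and 11 had an unadjusted p under 0.05, all with positive differences. Over all 11908 genes tested, 885 were higher at that p. Gstm1 encodes a mu-class glutathione transferase (chromosome 3, 108012250 to 108017973). Its values were 1149 and 741 in female HF/HS livers, against 597 and 500.1 in female controls. In males they were 1574, 1367 and 1778 on HF/HS, against 763, 773 and 746 on control. The lower female HF/HS value lay below all 3 male controls, and within each sex the diets did not overlap. Gstm1 rose by 0.93 ± 0.133 (adjusted p = 0.0259, limma), and Gstm3, from the same gene cluster, rose by 1.04 ± 0.157 (adjusted p = 0.03). They were called in 2 and 3 of the 10 fits with 1 library left out. Gstm2 had 0.67 (adjusted p = 0.0827) and Srxn1, the sulfiredoxin gene, 0.54 (adjusted p = 0.078). Without female HF/HS 3, 10 of the 24 were called, all higher, in a fit that called 141 genes higher over all genes tested. The Gstm genes are close paralogs, and how the authors' counting split shared reads is not given in the sources used here, so values of single members are uncertain. In the other strains the mean differences were 0.19 for Gstm1 and 0.05 for Gstm3, and neither difference between CC040 and the others was called (adjusted p = 1 each).

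Adam11 (chromosome 11, 102761439 to 102780262) had 2.66 and 1.81 in female HF/HS livers, against 0.2801 and 0.363 in female controls. Male values of Adam11 were 8.41, 7.03 and 9.305 on HF/HS, against 1.39, 1.26 and 1.63 on control. Every HF/HS library was above every control library, and male values were above female values on the same diet. Adam11 rose by 1.67 ± 0.141 (adjusted p = 0.0018, limma), the largest rise among the 15 genes called higher. The control libraries averaged 0.984, so Adam11 passed the filter on low values (a mean of at least 1) only through the HF/HS libraries.

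Atxn1 (chromosome 13, 45549756 to 45964991) had 5.48 and 4.16 in female HF/HS livers, against 10.3 and 12.3 in female controls. In males it had 4.605, 4.56 and 4.35 on HF/HS, against 9.37, 7.85 and 11.8 on control. All HF/HS values were below all control values, and Atxn1 fell by 0.997 ± 0.108 (adjusted p = 0.00709, limma).

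Other called genes rose by less than Adam11. Ddah1, encoding an enzyme that breaks down methylated arginines, averaged 60.96 ± 16.8 on HF/HS and 26.6 ± 9.61 on control and rose by 1.19. Gpc1, a heparan sulfate proteoglycan gene, averaged 19.1 ± 9.28 on HF/HS and 8.504 ± 4.23 on control and rose by 1.07. Idh2, encoding the mitochondrial NADP-dependent isocitrate dehydrogenase, averaged 117 ± 26.5 on HF/HS and 63.9 ± 9.42 on control and rose by 0.85. Ppl, the periplakin gene, and Defb1, a beta-defensin gene, rose by 0.85 and 0.66. Rab27a, a vesicle transport GTPase gene, rose by 0.50 (SD above over n = 5 libraries each; adjusted p of these 6 genes 0.0259 to 0.0475, limma).

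The named genes that fell outside sterol metabolism were expressed at low or moderate levels. Adgrf1, an adhesion receptor gene, averaged 1.304 ± 1.44 on HF/HS and 3.73 ± 2.65 on control and fell by 1.04. Tcf24, a basic helix-loop-helix factor gene, fell by 0.91. Its values were 4.96 and 3.13 in female HF/HS livers, against 6.77 and 7.42 in female controls, and 0.132 to 0.350 in male HF/HS livers, against 1.07 to 1.96 in male controls. Fras1, an extracellular matrix gene, and Neb, the nebulin gene, fell by 0.74 and 0.56, and Wsb1, a ubiquitin ligase adaptor gene, by 0.60. Fras1 averaged 0.746 ± 0.556 on HF/HS and 1.90 ± 0.779 on control. It passed the filter on low values only through the control libraries. The adjusted p of these 5 genes ran from 0.0259 to 0.0487 (limma). Esr1, the estrogen receptor alpha gene, fell by 0.54 (adjusted p = 0.0259, limma) and was chosen after its values were seen. It had 18.5 and 16.99 in female HF/HS livers, against 21.4 and 24.9 in female controls, and 6.73 to 7.22 in male HF/HS livers, against 10.8 to 12.5 in male controls.

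Lists without a called member still held large single differences. Of 23 tested drug metabolism genes, none was called and 8 had an unadjusted p under 0.05, all positive. Cyp2b10, a cytochrome P450 known as a target of the receptor CAR, was named after its values were seen. It had 2.37 and 4.87 in female HF/HS livers, against 0.6499 and 0.665 in female controls. Male livers had 12.1, 1.32 and 18.3 on HF/HS, against 0.461, 0.4498 and 0.914 on control. All HF/HS values were above all controls but differed widely among themselves, and the difference was 2.003 ± 0.552 (adjusted p = 0.172, limma). Cyp2b10 passed the filter on low values only through the HF/HS libraries. Cyp2b13, a female-biased relative, had 1.41 (adjusted p = 0.0615), and Cyp3a11, a major drug-metabolising P450, 1.04 (adjusted p = 0.0859). These P450 genes belong to families of close paralogs and are uncertain for the same reason as the Gstm genes.

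No member was called among 14 lipid droplet genes, 9 triglyceride synthesis genes or 20 genes of fatty acid synthesis and desaturation. None was called among 14 peroxisomal and 16 mitochondrial fatty acid oxidation genes either. Mogat1, an acyltransferase gene of diacylglycerol synthesis, had 0.99 (adjusted p = 0.0859, limma). The PPARgamma gene Pparg had 0.60 and the perilipin gene Plin4 had 0.77 (adjusted p = 0.113 and 0.175). Acss2, the cytosolic acetyl-CoA synthetase gene, had -1.31 (adjusted p = 0.122). The peroxisomal thiolase gene Acaa1b had 0.86 (adjusted p = 0.136). Of 24 genes of amino acid, urea and one-carbon metabolism none was called, and 8 had an unadjusted p under 0.05 with negative differences, such as Cps1 at -0.44 and Arg1 at -0.51. Without female HF/HS 3, 4 of these 24 were called lower, and 3 peroxisomal, 1 triglyceride synthesis, 1 lipid droplet and 2 drug metabolism genes were called higher. Over all genes tested, that fit called 67 lower and 141 higher. Of 24 acute phase and complement genes none was called, and Hamp2, a hepcidin gene, had -1.59 (adjusted p = 0.111); without female HF/HS 3, 1 of the 24 was called lower.

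The same libraries allow each sex to be set apart. In females 2 genes were called (0.0168% of those tested, 1 higher and 1 lower) and in males 68 (0.571%, 38 higher and 30 lower). In females Serpinb1a rose by 2.51 and Idi1 fell by 2.28 (adjusted p = 0.00649 and 0.0195, limma). An unadjusted p under 0.05 was reached by 1026 genes in females and 1538 in males. Females had 2 libraries for each diet and males 3. The male count was 205 without either female HF/HS library and 1 to 31 without male HF/HS 1 or 3 or any 1 control library, and 90 without male HF/HS 2. The female count ran from 1 to 391 over the same fits, with 391 without female HF/HS 2 and 33 without female HF/HS 3. The difference between the sexes was called for 1 gene (0.0084%), and 899 had an unadjusted p under 0.05. It was called for 9 genes without female HF/HS 3, 172 without female HF/HS 2, and 14 and 12 without female control 1 and 2. In fits that leave a female group with 1 library, that library is assumed to vary like the other groups. Without female HF/HS 2, the library left is female HF/HS 3, the one with raised neutrophil and resident macrophage markers.

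That gene was Serpinb1a, encoding an inhibitor of neutrophil proteases (chromosome 13, 32842092 to 32851185). Its values were 1.06, 0.703 and 0.741 in male HF/HS livers, against 1.24, 0.866 and 1.01 in male controls. In females they were 7.51 and 11.6 on HF/HS, against 0.985 and 0.666 on control. Males on either diet and female controls were all at or below 1.24. The male difference was -0.15 and the female difference 2.51, and the male minus female difference was -2.66 ± 0.257 (adjusted p = 0.0337, limma). Serpinb1a passed the filter only through the female HF/HS libraries, since the other 8 averaged 0.909. It was called in 6 of the 10 fits with 1 library left out, with a highest adjusted p of 0.183. It was not called in any fit that kept the repeated female column: the adjusted p was 0.841 with all 12 columns as labelled, 0.667 with the column as control only and 0.171 with it as HF/HS only. Of the 2 female HF/HS libraries, the one without raised neutrophil markers had 7.51.

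In males, 4 of 10 markers of lipid-associated macrophages rose, where 0.319% of all genes tested were called higher. Of the 10, 3 (Trem2, Gpnmb and Itgax) passed the filter on low values only through the male HF/HS libraries, so the count is a description and supports nothing further. They were Trem2, a lipid-sensing receptor, Gpnmb, a glycoprotein of lipid-laden macrophages, Mmp12, a macrophage elastase, and Itgax, the CD11c gene. Trem2 had 7.45, 3.51 and 8.297 in male HF/HS livers, against 0.559, 0.769 and 0.294 in male controls. In females it had 0.388 and 0.766 on HF/HS, against 0.248 and 0.1797 on control. The male HF/HS values stood well above the rest, and Trem2 rose by 2.21 in males (adjusted p = 0.0154, limma), with 0.37 in females.

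Gpnmb, named after its values were seen, had 10.9, 4.29 and 14.6 in male HF/HS livers, against 0.327, 0.387 and 0.112 in male controls. It rose by 2.97 in males (adjusted p = 0.0193, limma), and in females it had 0.3003 and 0.824 on HF/HS, against 0.0634 and 0.153 on control. Mmp12 and Itgax rose by 1.95 and 1.29 in males (adjusted p = 0.0312 and 0.04). Trem2 and Gpnmb were called in males in 6 of the 10 fits with 1 library left out, Mmp12 in 3 of 10, and Itgax in 2 of the 7 in which it passed the filter. The male minus female difference was 1.84 ± 0.411 for Trem2 and 2.49 ± 0.557 for Gpnmb, and neither was called (adjusted p = 0.513 and 0.517).

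Over both sexes no member of this list was called, but all 10 differences were positive and 9 had an unadjusted p under 0.05, with a median of 0.998 against -0.01 over all genes, subject to the same limit. The list summed to 248.8, 178 and 297 in male HF/HS livers, against 93.5, 61.4 and 119 in male controls. In females it summed to 66.6 and 145 on HF/HS, against 59.9 and 87.8 on control, and the higher HF/HS value belongs to the library with raised neutrophil markers. The part of lipid-associated macrophage numbers in these differences was not tested. Resident macrophage markers summed to 763 to 792 in male HF/HS livers, against 673 to 898 in male controls.

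Of 14 stellate cell and matrix genes, Col1a1 rose by 1.12 and Col5a2 fell by 1.05 in males (adjusted p = 0.04 and 0.0312, limma), and each was called in 3 of the 10 fits with 1 library left out. Col1a1, a chain of type I collagen, had 3.03, 1.63 and 3.37 in male HF/HS livers, against 0.654, 0.6499 and 0.6604 in male controls. In females it had 1.07 and 1.53 on HF/HS, against 0.674 and 0.651 on control. Col1a1 passed the filter on low values only through the male HF/HS libraries, so its call is a description and supports nothing further. Col5a2, a chain of type V collagen, had 10.6, 12.3 and 9.29 in male HF/HS livers, against 23.1, 21.8 and 24.5 in male controls. Over both sexes 13 of the 14 differences of the list were positive, with a median of 0.23, and Col5a2 was the negative one. Col3a1, a type III collagen chain, had 24.7, 18.1 and 29.6 in male HF/HS livers, against 9.21, 7.68 and 11.5 in male controls, and was not called over both sexes (0.98, adjusted p = 0.0859, limma).

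The lipid droplet gene Cidea rose by 1.36 in males (adjusted p = 0.0193, limma; called in 6 of the 10 fits with 1 library left out). It had 113, 86.98 and 139 in male HF/HS livers, against 43.9, 48.1 and 36.8 in male controls. In females it stayed low, at 0.3002 and 0.553 on HF/HS and 0.115 and 0.0556 on control, and the male minus female difference of 0.97 ± 0.266 was not called (adjusted p = 0.59). Cidea is also on the fat cell marker list. That list summed to 148 to 200.6 in male HF/HS livers, against 68.5 to 74.1 in male controls, and to 26.1 and 42.2 in female HF/HS livers, against 20.002 and 17.4 in female controls. Its 3 tested members, Cidea, Fabp4 and Cfd, all had positive differences. Fabp4 had 45.3, 30.1 and 54.6 in male HF/HS livers, against 21.9, 24.1 and 18.3 in male controls. Cfd, the adipsin gene, had 19.6, 30.95 and 6.65 in male HF/HS livers, against 8.14, 0.795 and 13.4 in male controls. Of the untested members, Adipoq had at most 0.281, Plin1 at most 0.0391 and Retn at most 0.161 in the 10 libraries, and Lep was listed at 0 in all of them. The part of fat cell RNA in these values was not tested.

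**Figure D4:**
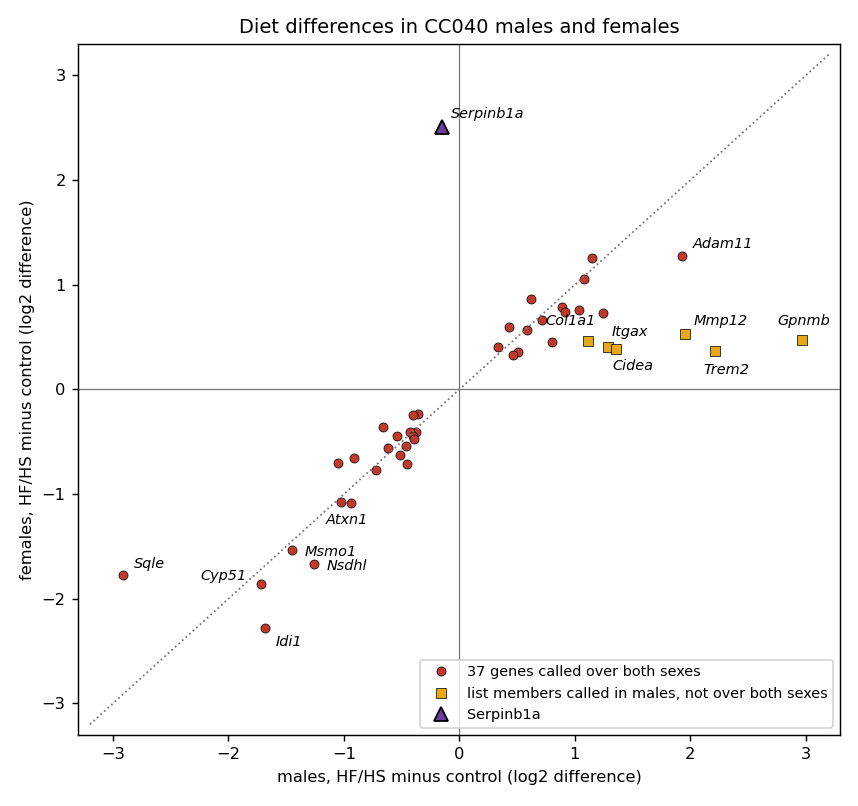
Log2 difference between HF/HS and control in males (x axis) and in females (y axis) for the 37 called genes (red circles), 6 of the list members called in males but not over both sexes (yellow squares) and Serpinb1a (purple triangle); the dotted line marks equal differences. All red points lie in the lower left or upper right quadrant, and Gpnmb sits at 2.97 in males and 0.48 in females.

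The last comparison asked where the CC040 diet difference departed from the mean of the other 9 strains, with 1 mean for each strain, sex and diet over 118 libraries. Of 12203 genes tested, 9 were called (0.0738%), 2 higher in CC040 (0.0164%) and 7 lower (0.0574%), and 473 had an unadjusted p under 0.05. In that fit, whose spread comes from all strains, CC040 itself had 49 genes called for diet, 29 higher and 20 lower, and the other strains had 24 to 1634. Only 11 of the 37 genes called from the CC040 libraries alone were among the 49. The other strains include CC003 and CC060, whose libraries differ in kind by their values. Snord104, a small RNA, had 378974 to 929515 in CC003 and 0 in CC060, against 33026 to 51160 in the CC040 libraries used. Without CC003 and CC060, the difference from other strains was called for 10 genes, 8 higher and 2 lower. Only 4 of the 9 were among them. Leaving out 1 CC040 library gave 3 to 27 calls. The count was 3 without female control 1 or female HF/HS 3, 27 without female HF/HS 2, and 18 without male HF/HS 2.

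Atxn1 had a diet difference of -1.01 in CC040 and of 0.12 over the other strains, where single strains ran from -0.28 to 0.73. The difference of -1.13 ± 0.232 was called (adjusted p = 0.0209, limma) and was called in 7 of the 10 fits with 1 library left out. It was lost without female control 1 or 2 or female HF/HS 3, with a highest adjusted p of 0.153.

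Endod1, encoding a nuclease-domain protein, had 0.69 in CC040 and 0.01 over the others (difference 0.68 ± 0.145, adjusted p = 0.0209, limma). In males it had 4.52, 2.44 and 6.62 on HF/HS, against 1.67, 1.46 and 1.96 on control. It was called in 5 of the 10 fits with 1 library left out (highest adjusted p = 0.16). Mgst2, a microsomal glutathione transferase gene, had 0.84 in CC040 and 0.16 over the others (difference 0.69 ± 0.139, adjusted p = 0.0209). It had 66.6, 56.3 and 74.1 in male HF/HS livers, against 25.1, 31.1 and 21.7 in male controls. In females it had 5.13 and 7.26 on HF/HS, against 3.65 and 5.47 on control. CC032 had a larger difference for Mgst2, 1.15. The call was lost without female control 1 or female HF/HS 3 (highest adjusted p = 0.258).

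Lama3, a laminin chain gene, had -0.61 in CC040 and 0.05 over the others (difference -0.65 ± 0.145, adjusted p = 0.0351, limma; called in 4 of the 10 fits with 1 library left out).

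Of the remaining calls, 4 were of genes outside the naming rule, named because the calls are few. Mir26b and Mir877 had a value of 357 each, and Mir1948 one of 713, in female control 1, and all 3 were listed at 0 in the other 9 CC040 libraries. H2-Ea-ps, a pseudogene of a class II histocompatibility gene, had 0 to 0.114 in HF/HS libraries, against 3.298 and 3.69 in male controls 1 and 2 and 0 to 0.269 in the other controls. Its call held in 2 of the 10 fits with 1 library left out (highest adjusted p = 0.45). The 5 called sterol enzymes, Adam11, Cd36 and Abcg5 had differences in CC040 and in the other strains that were not called apart (adjusted p = 1 each).

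**Figure D5:**
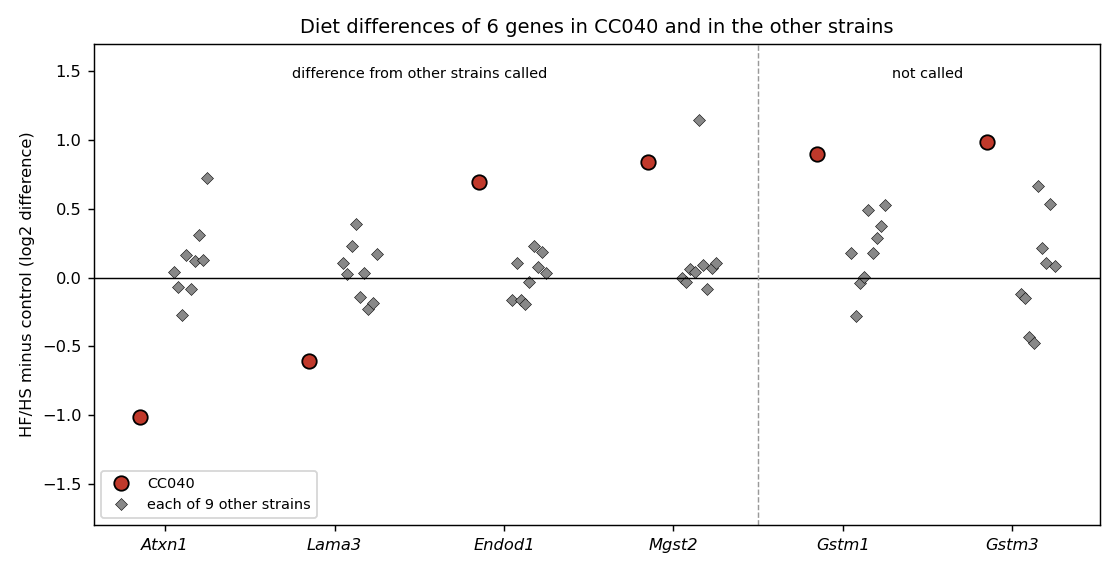
Log2 difference between HF/HS and control of 6 genes in CC040 (red circles) and in each of the 9 other strains (grey diamonds), from 1 fit over 118 libraries. The CC040 value lies outside the range of the other strains for 3 of the 4 genes left of the dashed line, where the difference was called, and inside it for Mgst2, for which CC032 has 1.15.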

How the data were processed

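RNA was extracted from flash-frozen livers with miRNeasy kits, per the labels' protocols. Libraries were made from 500 ng of RNA with stranded total-RNA and mRNA kits and the labels do not say which library used which. The submitters' processing notes name Cufflinks 2.2.1, Bowtie2 2.2.5.0, TopHat2 2.1.1 and the mm10 build. The authors deposited a single table of normalized values, treated here as FPKM rescaled by the authors, since each library has its 75th percentile at about 10. Depth is unknown, so no counting interval is given, and strand use in the counting is not given in the sources used here. Of 24883 rows, 1 with a missing value was left out.

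Values were transformed as log2(value + 1), and genes with a mean of at least 1 were tested with limma 3.58.1 (R 4.3.3, statmod 1.5.0; trended, robust prior, two-sided, Benjamini-Hochberg adjustment over all genes tested, called under 0.05). Fold changes on this scale understate changes of low genes. The diet effect used sex as covariate. Each sex and their difference came from 4 group means, and the comparison with other strains from 40 group means. On simulated data, 93% and 98% of genes changed by log2 sizes of 1 and 2 were recovered for the diet effect over 11901 genes, with 12 false calls. Recovery was 60% and 86% for the male minus female difference over 11894 genes (11 false calls), and 93% and 97% for the difference from other strains over 12106 genes (10 false calls). The simulated noise was normal and independent between libraries, with 1 SD per gene and no library set apart. Changes were planted only in genes with a mean of at least 2. The libraries used include at least 1 that stood apart, so these rates need not hold for them.

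The text names up to 12 called genes per direction of the diet effect, up to 4 per direction of the sex difference, up to 8 per direction of the strain difference, and up to 4 members of each list by p-value, among genes with a single row and a name that is not a clone, pseudogene or small RNA. Of list members, those with an unadjusted p under 0.05 are given. The members and lists were chosen with earlier results of these data known. Numbers were not treated as pairs. Same-numbered HF/HS and control libraries showed no clear shared deviation, but with 2 or 3 libraries per group this check could hardly find one. Promoters came from RefSeq (GRCm38.p6). Results of some genes are not reported here.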

Additional observations from a re-analysis of the deposited data

Results flagged for a closer look

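Of 96 groups of 5 libraries examined for a library far from the rest (11 marker sums and the 37 called genes, on each diet), 6 had one. The cutoff is set to flag about 1 in 20 groups drawn from a single normal distribution. These groups pool females and males, and the genes were picked by p-value, so that rate need not hold here. The female HF/HS library numbered 3 was far above the other HF/HS libraries for resident macrophage markers (sum 2103), neutrophil markers (sum 2002) and lymphocyte markers (sum 37.6). For endothelial markers the female HF/HS library numbered 2 was highest on HF/HS, with a sum of 279, and female control 2 was lowest on control, with a sum of 200.7. For Nsdhl the female HF/HS library numbered 2 was highest on HF/HS, at 22.4.

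The diet difference of Serpinb1a differed between the sexes, with a male minus female difference of -2.66 on the log2 scale.

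Further genes had a diet difference that differed between CC040 and the mean of the other strains. On the log2 scale the difference was -1.13 for Atxn1, -0.65 for Lama3 and -0.78 for H2-Ea-ps, whose call held in 2 of the 10 fits with 1 library left out. It was 0.68 for Endod1 and 0.69 for Mgst2. It was -2.37 for Mir1948 and -2.12 for each of Mir26b and Mir877, which were listed above 0 in a single CC040 library.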

How the results depend on the processing

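The diet effect called 37 genes, and the count was 24 with no filter on low values, 1 without sex as covariate, 222 in males fitted alone and 77 without both HF/HS libraries numbered 3. The last 2 settings were chosen after seeing the data. It was 0 with all 12 columns as labelled and 0 with the repeated column kept as control only. With library weights, whose estimation stopped before convergence, it was 5195, with 635 in males. Leaving out 1 library gave 6 to 208 for the diet effect, 1 to 391 in females, 1 to 205 in males, 0 to 172 for the sex difference and 3 to 27 for the strain difference. The female count of 2 was 4 with no filter, 1 with a mean of at least 5, 0 with all columns as labelled or the repeated column as control only, 4 with it as HF/HS only and 6 with the spread from all strains. The male count of 68 was 40 with the repeated column as control only. The sex difference count of 1 was 2 with a pseudocount of 0.1 or a prior without trend, and 0 with a pseudocount of 5, a mean of at least 5, size factors or the repeated column as HF/HS only. It was 4 with no filter and 12 with the spread from all strains. The strain difference count of 9 was 90 with no filter, 1 with a mean of at least 5, 0 with all columns as labelled and 4 with the repeated column as control only. Without CC003 and CC060 it was 10, with 8 higher and 2 lower, and 4 of the 9 were among them. The cause of these moves was not tested. With the replicate number as a block the counts were 19 for the diet effect, 64 in females, 189 in males and 63 for the sex difference; correlations of same-numbered libraries were -0.061, -0.0678 and 0.0168 in males and -0.112 in females, so the numbers did not pair them. No named gene changed sign: 2880 values kept their side of the threshold, 147 gained a call and 677 lost one. Depth is unknown, and the small number of libraries limits precision.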
